A study of Mus musculus with 4 samples.

Results

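Zfp36, Zfp36l1 and Zfp36l2 encode the Zfp36 family of mRNA decay proteins, and the reads over these 3 genes were followed in Foxp1 chromatin immunoprecipitation sequencing (ChIP-seq) of mouse mammary epithelium. The members were taken by symbol from a table of 24548 genes. All 3 were in the table and all 3 were among the 23128 genes with at least 40 reads over the 4 libraries, which are called tested genes here. Basal cells, the outer contractile layer of the mammary duct, and luminal cells, which line the duct, came from untreated wild-type FVB/N females aged 10 to 12 weeks (the sample labels write FBV/N for the strain). Each cell type has 1 library of DNA recovered with an antibody to the forkhead transcription factor Foxp1 and 1 library of input DNA, for which the labels name no antibody. The labels do not say how many animals gave each library or how the cells were separated, and no control antibody library was analysed here. With a single library in each group, the intervals given here hold counting error alone, and they compare libraries rather than conditions.

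Zfp36 proteins carry a pair of CCCH zinc fingers that grip AU-rich elements in the tails of short-lived mRNAs, and they recruit the CCR4-NOT complex, which removes the poly(A) tail and starts decay. Zfp36, also called tristetraprolin, is induced rapidly by growth factors and inflammatory stimuli and limits cytokine mRNAs. Zfp36l1 and Zfp36l2 share the fingers and the decay mechanism and are known for roles in development and in the quiescence and differentiation of blood cells. p38 kinase signalling through Mapkapk2 phosphorylates the proteins, 14-3-3 proteins then bind them, and dephosphorylation restores decay activity. ChIP-seq reads report DNA at a gene and say nothing on how much of its mRNA is made.

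The 4 libraries held 3080114 to 4201459 reads in counted regions, with a median of 136 to 192 reads per tested gene. No source used here states what part of a gene was counted, so it was read from the input libraries. Genes whose start lay 6 to 7 kb from the nearest start of another counted gene had a median of 365 reads over both inputs, and those beyond 50 kb had 363. The median was 234 reads at 3 to 4 kb, 134 reads at 2 to 3 kb and 61 reads under 1 kb, and genes over 50 kb long gave the same course. The counted reads were therefore taken to lie within about 3 kb of each gene's start, with reads that fall to 2 genes left out. A value below thus refers to a stretch around a gene's start, not to a binding site.

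**Figure D1:**
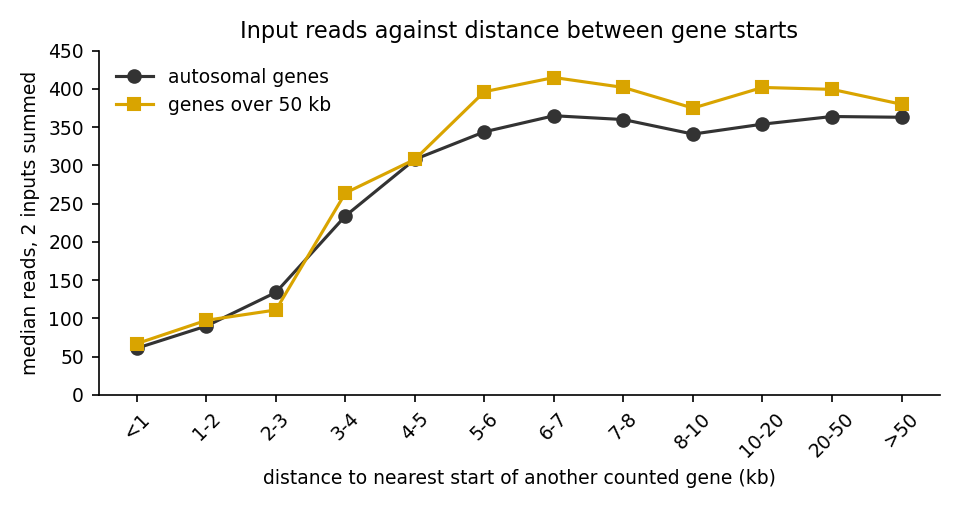
Median reads over the 2 inputs (y axis, reads summed) against the distance in kb from a gene's start to the nearest start of another counted gene (x axis, bins of unequal width), for autosomal genes with a strand in the promoter table (black) and those over 50 kb long (yellow). The median climbs from 61 reads under 1 kb to 365 reads at 6 to 7 kb and is 363 reads beyond 50 kb.

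Zfp36 (Entrez gene 22695, protein-coding) lies on chromosome 7 from 28376784 to 28379228, Zfp36l1 (12192, protein-coding) on chromosome 12 from 80107760 to 80113013 and Zfp36l2 (12193, protein-coding) on chromosome 17 from 84183924 to 84187947 (GRCm38). Zfp36 is 2445 bp long, so its whole body lies within 3 kb of its start. Zfp36l1 (5254 bp) and Zfp36l2 (4024 bp) are longer than 3 kb, so a part of each body lies beyond the stretch taken as counted. The RefSeq promoter table (GRCm38.p6) held 2 of the 3 members, and the 250 bases before their starts are shown because the counted reads surround them. They run 5′ to 3′ on the minus strand at chr7:28379229-28379478 for Zfp36 and chr12:80113014-80113263 for Zfp36l1, with the motif matches described next in capitals.
Zfp36: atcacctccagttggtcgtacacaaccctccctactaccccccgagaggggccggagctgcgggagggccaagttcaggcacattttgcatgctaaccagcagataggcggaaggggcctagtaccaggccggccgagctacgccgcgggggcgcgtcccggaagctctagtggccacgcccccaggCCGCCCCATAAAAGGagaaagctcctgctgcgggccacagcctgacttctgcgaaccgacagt
Zfp36l1: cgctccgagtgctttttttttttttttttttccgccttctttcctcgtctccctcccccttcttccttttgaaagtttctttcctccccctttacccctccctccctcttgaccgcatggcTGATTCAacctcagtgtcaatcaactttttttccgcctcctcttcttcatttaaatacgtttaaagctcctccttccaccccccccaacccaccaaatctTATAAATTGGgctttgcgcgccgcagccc

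The whole windows, which add 50 bases after the start, were searched on both strands for fixed motifs. In Zfp36 the capitals mark a GC box (GGGCGG, on the other strand) that begins 63 bases before the start and a CArG box, the element read by serum response factor, that begins 58 bases before it and overlaps the GC box by 1 base. A CArG box was in 1.63% of all 32851 windows and a GC box in 35.7%. In Zfp36l1 the capitals mark an AP-1 site (TGANTCA) 129 bases before the start, a TATA box (TATAAA) 29 bases before it, and a CCAAT box on the other strand 24 bases before it that overlaps the TATA box by 1 base. AP-1 sites were in 7.81% of windows, TATA boxes in 13.6% and CCAAT boxes in 37.4%. The forkhead letters TGTTTAC (3.65% of windows), their relaxed form TNTTTAC (12.4%) and the core of the cAMP response element TGACGT (7.51%) were in neither of these 2 windows. A match is a description of letters and not a measured site.

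All 3 family members had more reads in Foxp1 ChIP than in input, in basal and in luminal cells. The basal ratio spread from 1.81-fold at Zfp36l2 through 2.17-fold at Zfp36 to 2.82-fold at Zfp36l1, while the luminal ratios were close together, from 1.73-fold to 1.77-fold. The family was selected on these same ChIP over input ratios, so they are given as a description. Counts were scaled to RPM, reads per 1000000 in the library, with TMM factors, and a call of higher or lower needed both a 1.5-fold ratio and an exact 99% interval that excludes 1.

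At Zfp36l1 basal ChIP held 539 reads against 162 in its input, and luminal ChIP held 369 against 290. On the scaled level these were 146 and 51.8 RPM in basal ChIP and input, and 118 and 68.0 in luminal ChIP and input. Its basal ChIP library stood above the other 3 libraries, and basal input was the lowest. The basal ratio was 2.82-fold (99% interval 2.24 to 3.59), or log2 1.5, and ranked 26 of 23128 tested genes by size and 1 by the lower bound of the interval. The luminal ratio was 1.73-fold (1.41 to 2.13), or log2 0.79, at rank 194.

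At Zfp36 basal ChIP held 456 reads against 178 in its input, and luminal ChIP held 380 against 296. The ChIP libraries held nearly the same scaled level, 124 RPM in basal and 121 in luminal cells, and both lay above the inputs at 56.9 and 69.4. The basal ratio was 2.17-fold (1.73 to 2.75), or log2 1.12, at rank 100. The luminal ratio was 1.75-fold (1.43 to 2.14), or log2 0.80, at rank 185.

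At Zfp36l2 basal ChIP held 397 reads against 186 in its input, and luminal ChIP held 377 against 290. Here the scaled ChIP level was 108 RPM in basal and 120 in luminal cells, the reverse order to Zfp36l1, and the inputs stood at 59.4 and 68.0. The basal ratio was 1.81-fold (1.44 to 2.29), or log2 0.86, at rank 330. Its luminal ratio of 1.77-fold (1.44 to 2.17), or log2 0.82, at rank 170, was the highest of the family by a margin far inside the intervals.

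**Figure D2:**
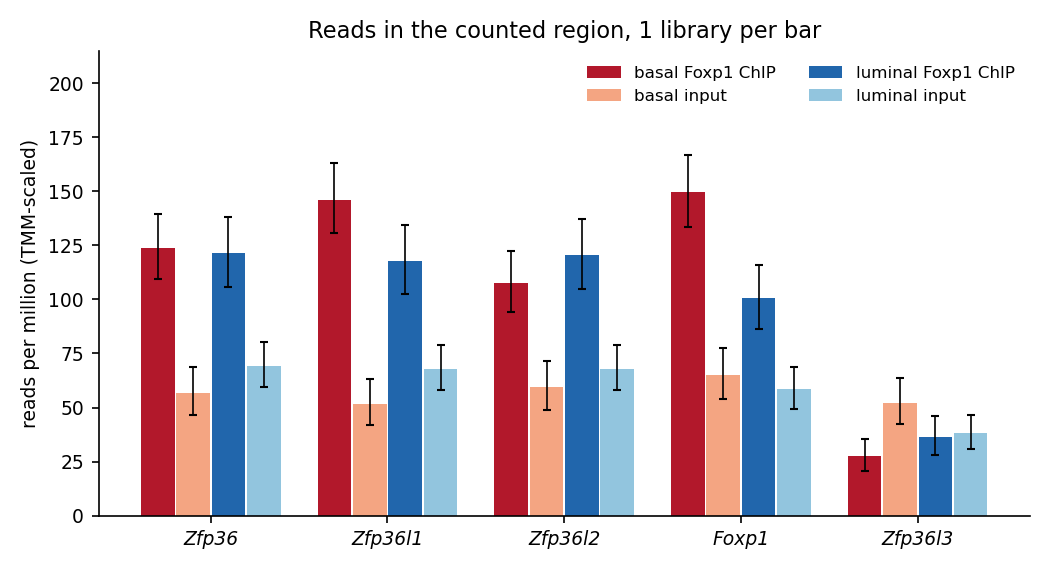
TMM-scaled read level (y axis, RPM, from 0) in the counted region of the 3 family members, Foxp1 and the paralog Zfp36l3, with 1 bar per library and exact 99% Poisson intervals of the count. In each of the 3 members both ChIP bars stand above both input bars, whereas at Zfp36l3 basal ChIP (27.4) lies below basal input (52.1).

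So 3 of 3 members were called higher in basal cells, where 4.24% of tested genes were, and 3 of 3 in luminal cells, where 1.5% were. In both cell types at once 108 of 23128 genes were called higher, 0.467%. With the log2 ratio at or above 0.79 in both cell types, the lowest of the 6 family ratios, 38 of 23128 genes remained. That limit was set by the family itself, so the 3 members are among them by construction. The family was selected on these same ratios, so these counts describe it and do not test it. The median log2 ratio of all tested genes was -0.01 in basal and -0.00 in luminal cells. Genes at least 6 kb from another start had similar shares called higher, 4.49% in basal and 1.43% in luminal cells over 13389 genes.

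**Figure D3:**
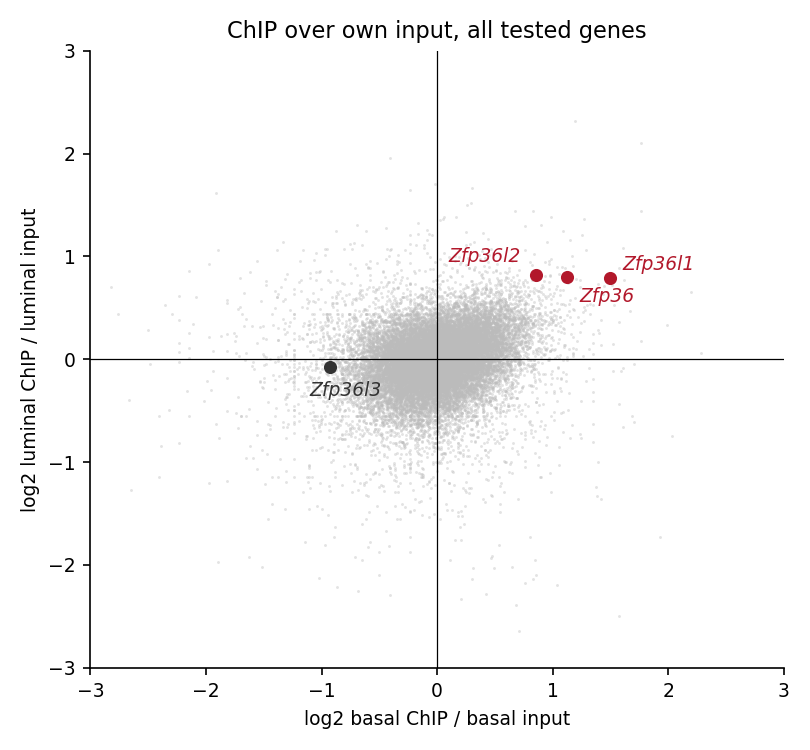
Log2 ratio of basal ChIP over basal input (x axis) against log2 ratio of luminal ChIP over luminal input (y axis) for the tested genes (grey points, 10 of them outside the axes), with the 3 members in red and Zfp36l3 in dark grey. The members sit in a row near 0.8 on the luminal axis and run from 0.86 to 1.5 on the basal axis, while Zfp36l3 is at -0.93 and -0.07.

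Within the family the basal ratios were compared pair by pair, with 99% intervals from the 4 counts. Zfp36l1 exceeded Zfp36l2 by 1.56-fold (1.13 to 2.16). It exceeded Zfp36 by 1.30-fold with an interval of 0.939 to 1.79, and Zfp36 exceeded Zfp36l2 by 1.20-fold (0.869 to 1.66), so neighbours in that order did not differ beyond counting error. In luminal cells the 3 pairs had ratios of 0.979 to 0.991, and their 99% intervals lay between 0.736 and 1.32. Differences inside those bounds were not detectable at this depth. These pairwise intervals hold counting error alone and were run under none of the alternatives. In basal ChIP over input, 1089 olfactory receptor genes had a variance 2.29 times that of counting. The 1.56-fold difference was not set against such spread.

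The difference between cell types was taken as the basal ratio over the luminal ratio. Zfp36l1 was higher in basal cells, at 1.63-fold (99% interval 1.20 to 2.21), or log2 0.70 with a counting standard error of 0.17. Zfp36 stood at 1.24-fold (0.919 to 1.68) and Zfp36l2 at 1.02-fold (0.755 to 1.39), neither called. Thus 1 of 3 members was called higher in basal cells, where 3.72% of tested genes were. Between the ChIP libraries directly, where the calls for basal over luminal were 4.05% of tested genes higher and 3.98% lower, Zfp36l1 was 1.24-fold higher (1.04 to 1.48), short of 1.5-fold, Zfp36 was at 1.02-fold (0.851 to 1.22) and Zfp36l2 at 0.895-fold (0.742 to 1.08). When the inputs were summed as one background, which makes the comparison that of the ChIP libraries, the Zfp36l1 call was lost.

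The inputs, which hold no antibody signal, moved in the other direction and are part of that difference. At Zfp36l1 the log2 ratio between the inputs, -0.39, was larger in size than that between the ChIP libraries, 0.31. Basal input over luminal input was 0.761-fold at Zfp36l1 (99% interval 0.587 to 0.982), 0.819-fold at Zfp36 (0.637 to 1.05) and 0.874-fold at Zfp36l2 (0.682 to 1.12). None of the 3 was called, where 0.709% of tested genes were called higher and 0.463% lower. Of all tested genes 5.39% had a lower input ratio than Zfp36l1, 11.4% than Zfp36 and 20.4% than Zfp36l2, so all 3 had fewer scaled reads in basal than in luminal input. With ratios centred on olfactory receptor genes, used mainly by sensory neurons, the input ratio of Zfp36l1 was 0.656-fold and passed the rule. Scaled reads of the members in luminal input were above those of 96.1% of tested genes at Zfp36 and 95.0% at both Zfp36l1 and Zfp36l2, and in basal input above 81.5%, 67.9% and 87.0% in the same order.

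**Figure D4:**
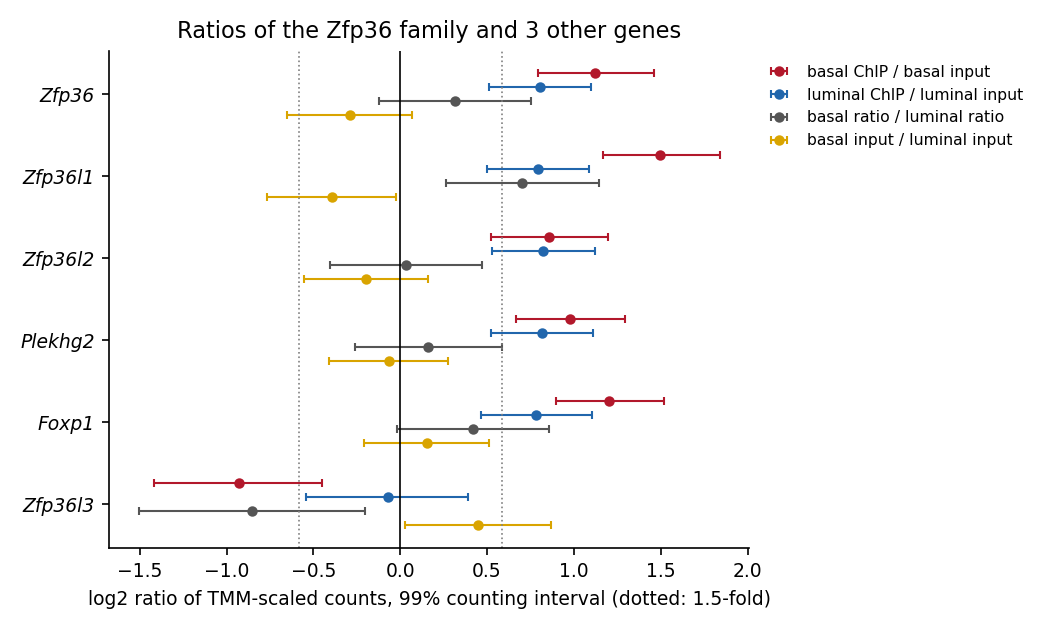
Log2 ratios (x axis) with 99% counting intervals for the 3 members, the gene adjacent to Zfp36 (Plekhg2), Foxp1 and Zfp36l3 (rows), in 4 comparisons by colour, dotted lines marking 1.5-fold. Basal and luminal ratios of the members lie right of 0, all 3 input ratios lie left of 0, and the ratio of ratios is right of the dotted line at Zfp36l1 alone among the members.

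Base composition moved with the ratios across genes. Among tested genes with a promoter window, the 3371 in the quintile with the most G and C (66.1 to 88%) had a median basal log2 ratio of 0.17 with 8.07% called higher. The 3594 in the quintile with the least (12.3 to 46.7%) had -0.17 and 0.918%. The windows of Zfp36 (63.7% G and C, 21 CpG) and Zfp36l1 (52%, 15 CpG) fell in different quintiles. Medians in the quintile of Zfp36 were 0.09 in basal and 0.05 in luminal cells, with 5.74% and 2.18% called higher, and in that of Zfp36l1 they were -0.07 and -0.04, with 2.58% and 0.803%. Both genes lay above these medians, but the family was selected on these same ratios, so that this was fixed in advance. The part of base composition in the family's ratios was not tested.

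Gene neighbours were examined because counted stretches can adjoin. Plekhg2, a gene whose start lies 6547 bp from that of Zfp36, had 478 reads against 206 in the basal pair of libraries and 380 against 294 in the luminal pair, ChIP first. Its ratios of 1.97-fold (1.59 to 2.46) in basal and 1.76-fold (1.44 to 2.16) in luminal cells were both called and were close to those of Zfp36. Whether reads from 1 enriched stretch reach both counted regions was not tested. On the other side Med29, a Mediator subunit gene, had 16 to 26 reads per library and was not called. Neither adjacent gene of Zfp36l1 was called. 9430078K24Rik had ratios of 1.04-fold in basal and 1.38-fold (1.07 to 1.78) in luminal cells, the latter above 1 but short of 1.5-fold, and 2310015A10Rik had 1.20-fold and 1.03-fold. At Zfp36l2 neither adjacent gene was called, with 1.31-fold (1.0 to 1.72) in basal and 0.990-fold in luminal cells at Thada, and 1.10-fold and 0.803-fold at 4933433H22Rik. Centred on olfactory receptor genes, the basal ratio of Thada was 1.52-fold and passed the rule. The starts of Med29, 2310015A10Rik and 9430078K24Rik lay 13462, 19831 and 176749 bp from those of their members, beyond the stretch taken as counted. For the neighbours of Zfp36l2 no distance between starts was available. Sharing of reads could therefore not be judged from the neighbours without a call. RefSeq also lists a processed copy, Zfp36l1-ps, on the X chromosome. It is not among the counted genes, and the treatment of reads that match both copies is not stated.

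Zfp36l3, a rodent paralog on the X chromosome known from placenta, does not belong to the 3 members but shares their zinc fingers. Basal ChIP held 101 reads of it against 163 in input, and luminal ChIP 114 against 163. In basal cells it was called lower at 0.526-fold (0.375 to 0.732), where 4.06% of tested genes were called lower, and in luminal cells it stood at 0.952-fold (0.688 to 1.31). Its ratio of ratios, 0.553-fold (0.352 to 0.869), was called lower in basal cells, where 4.16% of tested genes were, and lost that call with the inputs summed or with an interval widened by the spread among olfactory receptor genes.

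Likeness was measured as the distance between pairs of basal and luminal log2 ratios, over the 4 libraries. The pool was 15856 genes with at least 250 reads in both inputs together, leaving out predicted, Rik and clone-named genes. Nearest to Zfp36 were the ribosomal DNA repeat Rn45s (distance 0.04), Mir7687, Klf9, Foxp1 and Ptma (0.10). Foxp1 itself (551 reads over 203 in the basal pair of libraries, 315 over 249 in the luminal pair) had log2 ratios of 1.20 and 0.78. Nearest to Zfp36l1 were the pseudokinase gene Trib1 (distance 0.10, log2 ratios 1.44 and 0.71), the kinase gene Pim1 (0.12), Chic2, Foxp1 and Sfn (0.31), so that its surroundings were sparser. Nearest to Zfp36l2 were the AP-1 subunit gene Fos (distance 0.02, log2 ratios 0.88 and 0.83), the cytokine signalling inhibitor Socs1, the MAP kinase phosphatase Dusp4 and the stress-induced factor Atf3 (0.06).

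Genes of mRNA turnover were described with 5 lists, which hold 132 genes, 131 of them tested. The lists cover deadenylation, decapping and exosome decay, other RNA-binding proteins, proteins that act on the family, and genes whose mRNAs it binds. Basal ChIP had 22 higher and 2 lower calls among the 131, and their median log2 ratio was 0.19, beside 4.24% and 4.06% of all tested genes. In luminal ChIP 11 were called higher and 3 lower, with a median of 0.16, beside 1.5% and 2.13%. The lists were chosen with earlier results of these data known, so these counts are given as a description. The basal count of higher calls moved with the scale, to 14 with total counts and 45 after centring on the receptor genes, and with the background, to 14 when the inputs were summed. None of the other genes listed reached the basal ratio of Zfp36l1, but the family was selected on this ratio, so the comparison is no test.

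Of 20 deadenylation genes, basal ChIP had 5 higher calls and 0 lower calls, beside 4.24% and 4.06% of all tested genes. The list's median log2 ratio was 0.37. Btg1, an antiproliferative protein that binds the CCR4-NOT deadenylases, was highest, with 411 reads over 155 in basal cells (2.25-fold, 1.76 to 2.89) and 288 over 309 in luminal cells (log2 0.34, not called). Its relative Btg2 (1.64-fold), the poly(A)-specific ribonuclease Parn (1.53-fold) and the catalytic subunit Cnot6 (1.52-fold) followed. The call on Btg1 alone of these 5 held under all alternatives. Cnot1, the scaffold that Zfp36 proteins contact, had a basal log2 ratio of -0.16 and was not called. In luminal ChIP 1 of 20, the catalytic subunit Cnot6l, was called higher at 1.56-fold (1.25 to 1.95), where 1.5% of tested genes were. The list median was 0.15.

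Of 30 decapping and exosome genes, 1 was called higher and 1 lower in basal ChIP (median log2 0.03), and 3 higher and 1 lower in luminal ChIP (median 0.23). The exosome subunit gene Exosc4 was called higher in basal cells at 1.51-fold, and Ttc37 of the Ski complex lower at 0.364-fold on 12 reads over 28. In luminal cells the decapping enhancer gene Patl1 was at 1.57-fold, while Lsm7 (40 reads over 22), Exosc1 (30 over 13) and the lower-called Exosc7 (23 over 66) rested on few reads. Each of these 6 calls was lost under at least 1 alternative.

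Of 28 tested genes for other RNA-binding proteins of mRNA turnover, basal ChIP had 5 higher calls and 1 lower call, Zfp36l3. The median log2 ratio was 0.12. Of all tested genes 4.24% were called higher and 4.06% lower, so the 1 lower call was near the share of all genes. The highest 4 were Cpeb1, which binds cytoplasmic polyadenylation elements (1.6-fold), Mex3c, an RNA-binding ubiquitin ligase, Samd4, the Smaug homolog, and Hnrnpd, also called AUF1 (1.52-fold). Of these 4, all but the call on Cpeb1 were lost with total counts or with the inputs summed. Cpeb1 (1.52-fold) and Mex3c (1.57-fold) were called higher in luminal ChIP too, none lower, beside 1.5% and 2.13% of all tested genes. The luminal list median was 0.08. The luminal Cpeb1 call was lost with total counts (1.48-fold) and with the inputs summed (1.47-fold).

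Of 22 genes for kinases, phosphatases and 14-3-3 proteins that act on the family, basal ChIP had 4 higher calls and 0 lower calls. This stands beside 4.24% and 4.06% of all tested genes, and the list's median log2 ratio was 0.42. Sfn, the epithelial 14-3-3 protein sigma, had 630 reads over 214 in basal cells (2.5-fold, 2.04 to 3.08) and 287 over 269 in luminal cells (1.45-fold). Ppp2ca, the catalytic subunit of protein phosphatase 2A, was called in both cell types, at 1.73-fold and 1.55-fold. Ywhag, 14-3-3 gamma, was called in basal cells at 1.68-fold, as was Dusp1, which inactivates MAP kinases, at 1.56-fold. Total counts or summed inputs each ended the Dusp1 call. In luminal ChIP Ppp2ca was the 1 call, where 1.5% of tested genes were called higher, and the list median was 0.23.

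Of 32 genes whose mRNAs the family is known to bind, 8 were called higher and none lower in basal ChIP (median log2 0.18). In luminal ChIP 4 were called higher and 2 lower (median 0.13). The shares of all tested genes were 4.24% higher and 4.06% lower in basal ChIP, and 1.5% and 2.13% in luminal ChIP. Pim1 (2.63-fold, 2.14 to 3.25), Myc (2.0-fold, 1.57 to 2.57), Fos (1.84-fold) and the chemokine gene Cxcl2 (1.71-fold) led in basal cells, the last losing its call with the inputs summed. Fos (1.78-fold), the NF-kB inhibitor gene Nfkbia (1.71-fold), Pim1 (1.66-fold) and the cytokine gene Il10 (1.6-fold) were called higher in luminal cells. Il1b (31 reads over 92, 0.459-fold) and Cdkn1a (0.662-fold) were called lower there, both losing the call with the widened interval. The list was drawn up with earlier values of Pim1, Myc and Fos in these libraries known.

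**Figure D5:**
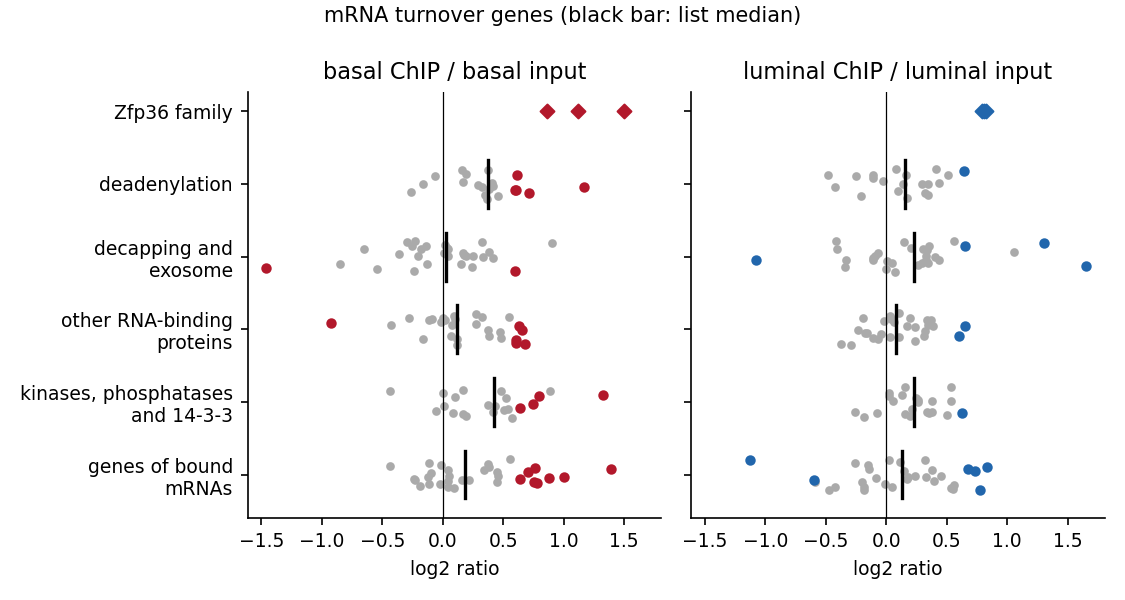
Log2 ratios (x axis) of the 3 family members (diamonds) and of the genes in 5 mRNA turnover lists (points, spread vertically for legibility), in basal (left) and luminal (right) ChIP over input, with called genes in colour and the list median as a black bar. List medians run from 0.03 to 0.42 in basal and from 0.08 to 0.23 in luminal cells, below all 3 members, which were selected on these ratios.

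As a check of the cell type labels, 10 basal markers had a median log2 ratio of ratios of 0.56, 5 of them called higher in basal cells and none lower. The 12 luminal markers had a median of -0.01, with 1 called higher in luminal cells. For this ratio 3.72% of tested genes were called higher in basal cells and 4.16% higher in luminal cells. In luminal ChIP over input 4 of the luminal markers were called higher, and 1 of them, Epcam (1.89-fold), was called higher in basal ChIP over input too. The inputs moved with the cell type too, at a median log2 of 0.28 over the basal and -0.39 over the luminal markers for basal over luminal input. Among 10 leukocyte, 8 fibroblast, 7 endothelial and 6 adipocyte markers no gene was called higher over input in either cell type, where 4.24% and 1.5% of tested genes were, so that few calls could fall in lists of this size. Itgam (leukocyte), Dcn (fibroblast) and Tek (endothelial) were called lower in basal ChIP, with log2 ratios of -0.65, -0.63 and -0.77. Plin1 (adipocyte) was called lower in luminal ChIP, at -0.60. These 4 were named after their values were seen. Of all tested genes 4.06% were called lower in basal and 2.13% in luminal ChIP. The basal medians of the leukocyte, fibroblast and endothelial lists were 0.07, -0.10 and -0.22, and the luminal median of the adipocyte list was -0.25. In basal ChIP 6 of the 10 leukocyte markers lay above 0. Reads from DNA cannot show whether a marker's RNA is absent.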

How the data were processed

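The authors deposited raw read counts per gene, not normalized, for 1 library per group, in 1 series table and 4 single-library files that were equal for 24548 of 24548 genes. Single reads of 75 to 85 bp were sequenced, per the labels' protocols. Per the submitters' processing notes reads were counted with featureCounts on build mm10, and no aligner or treatment of duplicates is given in the sources used here. Positions came from RefSeq genes on GRCm38.p6, in which 24480 gene IDs were found.

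TMM factors were computed with edgeR 4.0.16 (R 4.3.3) on genes with at least 40 counts over 4 libraries. Ratios and exact Clopper-Pearson 99% intervals used Python 3.11.15 and scipy 1.17.1. A count of 0.5 was added to both counts of a ratio where either was 0, and to all 4 counts for a ratio of ratios, whose interval is a normal approximation. The procedure was tested on simulated counts that held counting error alone, which is less spread than the olfactory receptor genes show in these libraries. PCR copies are not independent molecules, so intervals understate error. A count model could not be fitted to 1 library per group, and there are no p-values. Members, lists and motifs were chosen with earlier results of these data known. Genes named were the members, Foxp1, called list genes (at most 4 highest and 3 lowest), adjacent genes and the 5 nearest in ratio to each member, 1 of which is not reported here; Cnot1 and the paralog were named for their role. Alternatives were total counts, DESeq2 1.42.0 size factors, receptor centring, no count filter, a widened interval and summed inputs.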

Additional observations from a re-analysis of the deposited data

How the results depend on the processing

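The basal and luminal calls on all 3 members held under the 6 alternatives run on each. Basal log2 ratios ranged from 1.26 to 1.71 at Zfp36l1, 0.95 to 1.33 at Zfp36 and 0.74 to 1.07 at Zfp36l2, and luminal ratios from 0.76 to 0.95 over the 3. The ratio of ratios of Zfp36l1 was log2 0.31 with the inputs summed, leaving 0 members called, and 0.70 with an interval of 0.04 to 1.37 when that was widened by the receptor spread. With ratios centred on olfactory receptor genes 1 member was called lower in basal input.

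Receptor centring shifted the median log2 ratio of all genes to 0.20 in basal ChIP, 0.06 in luminal ChIP, -0.21 between inputs and 0.15 for the ratio of ratios. Under it basal ChIP had 2994 higher and 237 lower calls (92.7% of calls higher), luminal ChIP 571 and 306 (65.1%), basal over luminal input 13 and 904, and the ratio of ratios 2063 and 405 (83.6%). As reported these were 981 and 939 (51.1%), 347 and 492 (41.4%), 164 and 107, and 861 and 963 (47.2%). Total counts moved the balance the other way, to 698 higher and 1311 lower in basal ChIP (34.7% higher) and 268 and 604 in luminal ChIP (30.7%). Widening the interval left 829 higher and 243 lower calls in basal ChIP (77.3%), 262 and 124 in luminal ChIP (67.9%), and 179 higher and 113 lower in the ratio of ratios. Of the mRNA turnover genes, 14 were called higher in basal ChIP with total counts, 14 with the inputs summed and 45 with receptor centring; lower calls were 1 in basal ChIP with receptor centring, 1 with the widened interval, and 0 in luminal ChIP with the widened interval. No library could be left out, since each group has 1. No paired analysis was possible because each group has 1 library and the labels give no replicate numbers; a fit that takes the cell types as replicates of each other was not run.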
